A study of Mus musculus with 22 samples.

Results

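Genes of the nucleolar ribosome factory were followed through the 10 RNA libraries of a study of mutant huntingtin in mouse microglial cells. The set was named by symbol and holds 36 genes: 35 that encode proteins which transcribe, modify, cut and assemble ribosomal RNA in the nucleolus, and Myc, a transcription factor gene that is no nucleolar component. A row was found for 35 of the 36, out of 23953 gene symbols in the expression table, and Noc2l was not analysed here. Where a symbol had several transcripts, 1 was chosen by its measured level, the highest mean RPKM over the 10 libraries (read counts scaled to transcript length and library depth), which left 35 of the members' 47 transcripts. The list itself was selected on earlier results of these same libraries, including the difference between cells with and without mutant huntingtin. Its counts are therefore a description and give no independent evidence of a direction.

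Ribosomes are built in the nucleolus. RNA polymerase I transcribes a long ribosomal RNA precursor there, small nucleolar ribonucleoproteins (snoRNPs) of the box C/D and box H/ACA classes methylate and pseudouridylate it, and separate sets of assembly factors cut and fold the precursors of the small and the large subunit. The supply of these factors is known to follow cell growth, and MYC is a known activator of many of their genes.

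The study used BV2 cells, an immortalised mouse microglial line made with a retrovirus that carried the viral oncogenes v-raf and v-myc, and 2 kinds of primary mouse cell. Lentivirus made from pCDH-CMV-MCS-EF1-Puro carried into BV2 cells either no insert (the empty vector) or the N-terminus of human huntingtin behind the CMV promoter, with a tract of 15 glutamines (wild-type fragment) or of 128 (mutant fragment). Each construct had 1 RNA library at 24 h and 1 at another time, for which the sources conflict: the expression table's header has 6 h, while the sample titles have 48 h. It is called the second time, and no order is assumed. All 3 constructs share the vector backbone with its puromycin resistance gene, and the titles mark every BV2 library as having had no treatment. Chromatin immunoprecipitation sequencing (ChIP-seq) was made for H3K4me2, which marks promoters and enhancers, and for 3 transcription factors of myeloid cells (PU.1, C/EBPα, C/EBPβ), with 1 library for each antibody and construct, described as untreated cells of 24 h. The primary cells were microglia sorted from adult cortex, striatum and hippocampus as CD11b-positive, CD45-low cells, and macrophages grown from bone marrow. Both came from mice whose huntingtin alleles carried 7 glutamines (Q7) or 175 glutamines (Q175) on both copies, with 1 library per cell type and genotype. Separate transductions, cultures or animals are not recorded for any group, nor are the strain, sex or number of mice, so a p-value here reflects the scatter of these libraries alone, and that scatter may be technical.

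Implied depth was 10.8 to 14.0 M reads in the BV2 libraries and 28.8 to 47.8 M in the primary ones, of which 3.63 to 4.71 M and 9.85 to 24.6 M fell on gene transcripts. All 8 general myeloid markers were above 0 in every library. The 10 microglia markers summed to 55.4 to 167 RPKM in BV2 cells, against 4686 and 3892 RPKM in the microglia, and P2ry12, a defining microglial receptor gene, lay between 0 and 0.061 RPKM in BV2 cells. The 8 granulocyte markers were all above 0 in the microglia, where they summed to 1788 RPKM (Q7) and 571 RPKM (Q175). All 8 were above 0 in the macrophages too, with sums of 428 RPKM (Q7) and 215 RPKM (Q175). In BV2 cells they summed to 1.13 to 6.16 RPKM in 5 libraries and to 219 RPKM in the mutant-fragment library of 24 h, with 4 of the 8 at 0 there and nearly all of the sum from Lcn2. In bulk RNA, fewer cells of a type and less RNA per cell cannot be told apart.

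At 24 h the mutant-fragment library had higher levels of nearly the whole set. The median level of the 34 members other than Myc was 8.61 RPKM for the empty vector, 9.30 RPKM for the wild-type and 14.9 RPKM for the mutant fragment. At the second time the same medians were 15.8, 15.0 and 15.5 RPKM. The mutant-fragment cells thus had similar medians at both times, while both control libraries were lower at 24 h. Single genes did not keep still in the mutant-fragment cells: between the times 19 members were higher and 16 lower at the second time, with differences between -2.59 and 1.26 on the log2(RPKM + 1) scale. The plot of the members in the 6 BV2 libraries shows every value.

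**Figure D1:**
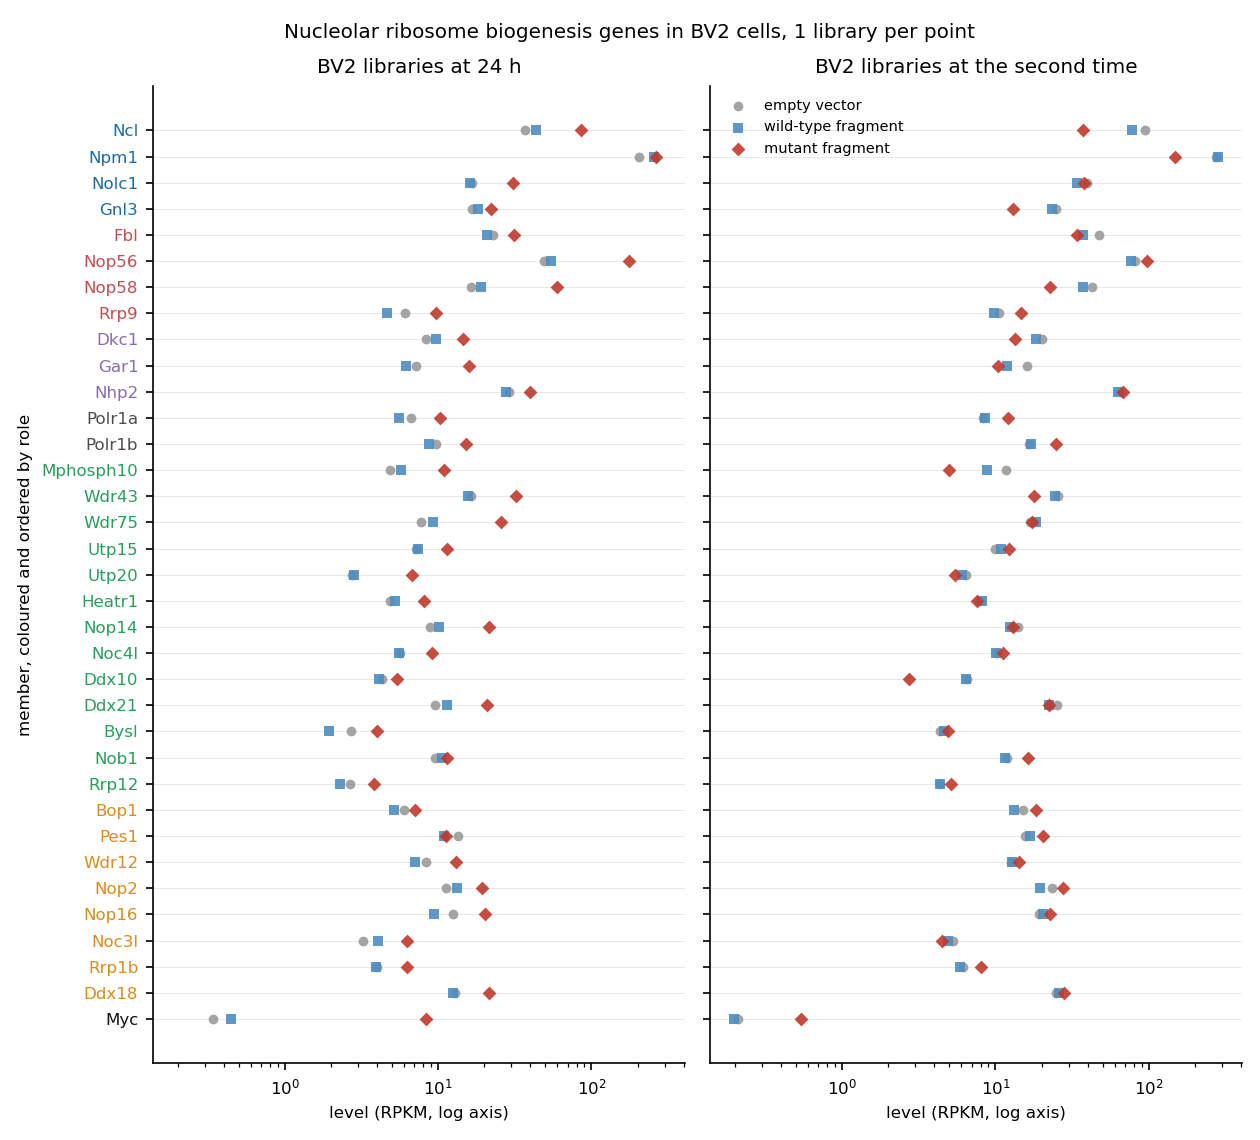
Level of each of the 35 members (RPKM, log axis) in the 6 BV2 libraries, with 24 h on the left and the second time on the right. Each point is 1 library and gene names are coloured by role. At 24 h the mutant fragment lay above both controls for 34 of 35 members, and at the second time it lay above both for 18 and below both for 13.

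The first question is how the mutant fragment differed from the controls at each time, with the empty-vector and wild-type-fragment libraries of a time as its controls. At 24 h, 27 of the 34 members tested were called higher and 0 lower (limma, adjusted p under 0.05 over 10350 genes). The background was high, since 21.1% of all genes tested were called higher and 18.4% lower. This comparison sets 1 mutant-fragment library against 2 libraries of different constructs, on members selected on results that include it, so its p-values describe these libraries and do not test an effect of the mutant fragment. The members' median difference was 0.66 (log2 scale), against 0.05 over all genes. The mutant fragment lay above both controls for 34 of 35 members, beside 47.7% of all genes tested, and Pes1 was the exception. With 1 other BV2 library left out in turn, most members were still called higher, and the share of all genes called higher moved with them.

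At the second time the set split. There 2 members were called higher (8.98% of all genes) and 7 lower (14.6% of all genes), and 25 of the 34 were called in neither direction (limma). The members' median difference was 0.07, against -0.03 over all genes, and it was -0.03 after quantile normalization. The mutant fragment lay above both controls for 18 members (40.3% of all genes) and below both for 13 (45.7% of all genes). Without the empty-vector or without the wild-type-fragment library of the second time no member was called, and few genes were called in all. With no filter on low values 1 member was called higher (3.98% of all genes) and 3 lower (5.70%).

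The difference between the times was read by an interaction contrast in the same limma fit, again with 1 mutant-fragment library at each time. It called 18 of 34 members lower at the second time than at 24 h (16.2% of all genes) and 0 higher (11.9% of all genes), with a median of -0.72 against -0.09 over all genes. Leaving out either control library of 24 h gave fewer calls, both among the members and over all genes. Without either control library of the second time no member was called, and almost no gene was called in all. With no filter on low values 11 members were called lower, beside 6.69% of all genes. The 24 h and second-time differences come from separate libraries. Mphosph10, Ncl, Nop58 and Wdr43 were called higher at 24 h and lower at the second time. Polr1b was called higher at both, and Bop1, Fbl and Pes1 were called at neither.

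**Figure D2:**
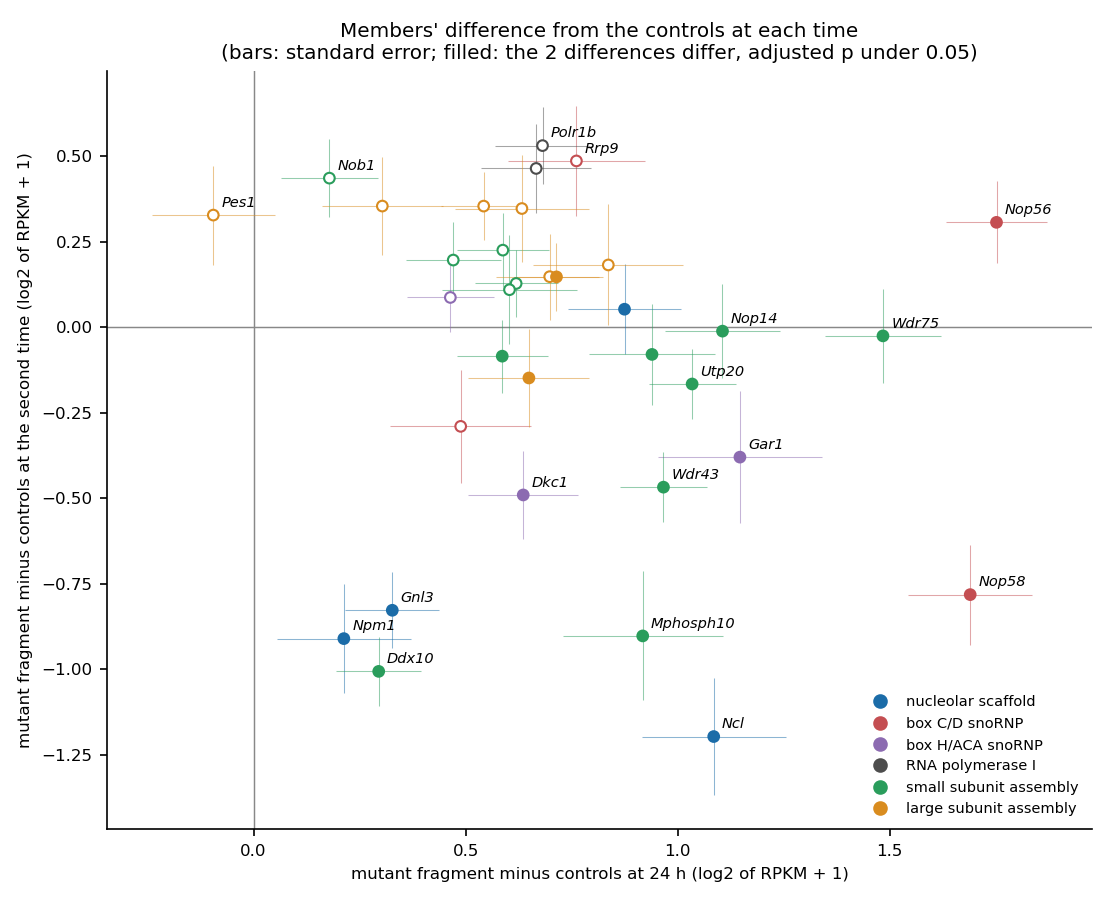
Difference between the mutant fragment and the controls for the 34 members tested, at 24 h (horizontal) and at the second time (vertical), on the log2(RPKM + 1) scale, with standard errors as bars. Filled points are the 18 members called in the interaction contrast, which called 16.2% of all genes lower and 11.9% higher. All but Pes1 lie to the right of 0, while Ncl, Ddx10, Npm1, Mphosph10, Gnl3 and Nop58 lie lowest.

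The nucleolar scaffold proteins include the most abundant members. Npm1 encodes nucleophosmin, a histone and ribosome chaperone, and had the highest mean level, 152 RPKM. Its level at 24 h was 204 RPKM with the empty vector, 255 RPKM with the wild-type fragment and 264 RPKM with the mutant fragment, and at the second time 277, 283 and 148 RPKM in the same order. The 24 h difference did not pass (0.21, SE 0.16, adjusted p = 0.330 in limma), and at the second time Npm1 was lower by a log2 difference of -0.91 (SE 0.16, adjusted p = 0.0182). Npm1 has many processed pseudogenes, and the sources used here do not give how shared reads were counted, so its level is uncertain.

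Ncl encodes nucleolin, which binds the ribosomal RNA precursor and chromatin. It was at 36.7, 43.4 and 85.8 RPKM at 24 h (empty vector, wild-type fragment, mutant fragment) and at 95.1, 78.3 and 37.1 RPKM at the second time. The mutant-fragment library was thus the highest of the 3 at 24 h and the lowest at the second time. The differences were 1.08 (SE 0.17, adjusted p = 0.00844 in limma) and -1.20 (SE 0.17, adjusted p = 0.0116), and the interaction was -2.28 (SE 0.24). Gnl3, the gene of the GTP-binding nucleolar protein nucleostemin, stood at 16.7, 18.1 and 22.1 RPKM at 24 h and at 24.8, 23.2 and 13.1 RPKM at the second time. Gnl3 was called at the second time (-0.83) and not at 24 h (0.33, adjusted p = 0.0701 in limma). Nolc1, a snoRNP chaperone, was called higher at 24 h (0.87) and had a second-time difference of 0.05.

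Box C/D snoRNP genes held the largest differences among the 34 members tested at 24 h. Nop56, a core protein of these particles, was at 49.0 and 54.7 RPKM in the controls and 177 RPKM with the mutant fragment at 24 h. At the second time it was at 81.7, 76.5 and 98.1 RPKM. The mutant fragment was the highest library at both times, but by 3.37-fold on the RPKM + 1 scale at 24 h (log2 difference 1.75, SE 0.12, adjusted p = 0.00128 in limma) and by 0.31 on the log2 scale at the second time, which did not pass. Nop58, its partner in the same particles, was at 16.3, 19.1 and 59.2 RPKM at 24 h and at 42.6, 37.3 and 22.8 RPKM at the second time. Its interaction of -2.47 (SE 0.21, adjusted p = 0.00969 in limma) was the largest among the members, made of a difference of 1.69 at 24 h and of -0.78 at the second time. Fbl, the methyltransferase fibrillarin, had 22.9, 20.8 and 31.0 RPKM at 24 h and 47.3, 37.5 and 34.3 RPKM at the second time, and passed at neither. Rrp9, a protein of the U3 particle, was called higher at 24 h (0.76) and had 0.49 at the second time (adjusted p = 0.0890).

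All 3 box H/ACA snoRNP genes were called higher at 24 h (21.1% of all genes). None was called at the second time, where 8.98% of all genes were called higher and 14.6% lower. Gar1, a core protein, was at 7.13, 6.20 and 15.9 RPKM at 24 h and at 16.0, 11.9 and 10.4 RPKM at the second time. Its difference of 1.15 at 24 h became -0.38 at the second time, and the interaction of -1.53 (SE 0.27, adjusted p = 0.0191 in limma) passed. Dkc1 encodes dyskerin, the pseudouridine synthase, and had 8.36, 9.65 and 14.5 RPKM at 24 h and 20.1, 18.4 and 13.4 RPKM at the second time (interaction -1.13). Nhp2, the most abundant of the 3, had 29.2, 27.8 and 39.7 RPKM at 24 h and 64.6, 63.0 and 67.9 RPKM at the second time, and its interaction did not pass (-0.38, adjusted p = 0.109).

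Both RNA polymerase I subunit genes were above the controls at both times. Polr1b, which encodes the second largest subunit, was at 9.65, 8.66 and 15.3 RPKM at 24 h and at 16.6, 17.0 and 24.8 RPKM at the second time. The differences were 0.68 (SE 0.11, adjusted p = 0.00961 in limma) and 0.53 (SE 0.11, adjusted p = 0.0292), and the interaction was -0.15. For Polr1a, the largest subunit, the difference was 0.67 at 24 h, which passed, and 0.46 at the second time, which did not (adjusted p = 0.0582). Each gene was thus higher than both controls in 2 of 2 mutant-fragment libraries. The same held for other members, among them Nop56, Rrp9 and Nop2, so it was not particular to these 2 genes. Over all genes tested, the mutant fragment lay above both controls for 47.7% at 24 h and 40.3% at the second time.

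Among small subunit assembly factors, 11 of 13 were called higher at 24 h (21.1% of all genes). In the interaction 8 of 13 were called, all lower (16.2% of all genes). Wdr75, a component of the complex that binds the start of the precursor, was at 7.78, 9.24 and 25.5 RPKM at 24 h and at 16.9, 18.4 and 17.3 RPKM at the second time. Its difference was 1.48 at 24 h (SE 0.14, adjusted p = 0.00227 in limma) and -0.02 at the second time. Wdr43, of the same complex and the most abundant of these factors, had 16.3, 15.7 and 32.2 RPKM at 24 h and 25.7, 24.6 and 17.9 RPKM at the second time. For Wdr43 the mutant-fragment library was thus the highest of the 3 at 24 h and the lowest at the second time. The differences were 0.97 and -0.47, both called. Mphosph10, a U3-associated protein, had the same pattern. It was at 4.89, 5.76 and 10.9 RPKM at 24 h and at 11.8, 8.87 and 5.01 RPKM at the second time (differences 0.92 and -0.90).

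The RNA helicase genes Ddx10 and Ddx21 were called at different times. Ddx10 was at 4.32, 4.11 and 5.40 RPKM at 24 h and at 6.50, 6.44 and 2.72 RPKM at the second time. It did not pass at 24 h (0.29, adjusted p = 0.0706 in limma) and had the second largest decrease of the set at the second time (-1.01, SE 0.10, adjusted p = 0.00693). Ddx21 was called higher at 24 h (0.94) and had -0.08 at the second time. Utp20, a large scaffold protein of the early small subunit particle, had 2.76, 2.84 and 6.78 RPKM at 24 h and 6.42, 6.04 and 5.45 RPKM at the second time (interaction -1.20). Nop14 (1.11), Noc4l (0.62), Bysl (0.60), Utp15 (0.59), Heatr1 (0.59) and Rrp12 (0.47) were also called higher at 24 h, and Nob1, the endonuclease that makes the last cut of the small subunit RNA, was not (0.18). Nob1 was 1 of the 2 members called higher at the second time (0.44, SE 0.11, adjusted p = 0.0496 in limma).

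Large subunit assembly factors had calls at 24 h and none at the second time. Of 8 tested, 6 were called higher at 24 h, 0 were called at the second time and 2 (Noc3l and Ddx18) had a called interaction. Over all genes, 21.1% were called higher at 24 h and 16.2% lower in the interaction. At the second time 8.98% of all genes were called higher and 14.6% lower. Nop2, an RNA methyltransferase and the most abundant, was at 11.3, 13.2 and 19.5 RPKM at 24 h and at 23.5, 19.6 and 27.6 RPKM at the second time. Nop16 was at 12.4, 9.37 and 20.1 RPKM at 24 h and at 19.3, 20.5 and 22.7 RPKM at the second time. Its difference at 24 h was 0.84 (SE 0.18, adjusted p = 0.0192 in limma). Pes1, Bop1 and Wdr12 encode the 3 proteins of the PeBoW complex, and they did not move alike at 24 h. Pes1 was at 13.4, 11.0 and 11.3 RPKM (-0.10) and Bop1 at 6.00, 5.13 and 7.08 RPKM (0.30), neither of which passed, while Wdr12 was called at 0.70. At the second time Rrp1b (6.18, 5.91 and 8.01 RPKM) and Bop1 (15.2, 13.2 and 18.4 RPKM) had the largest differences of this group, 0.35 each, with adjusted p = 0.0607 and adjusted p = 0.136 in limma.

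Among the 6 BV2 libraries Myc had the widest range of the members, relative to its level. The gene lies on chromosome 15 at 61816896 to 61821916 (mm9, plus strand). Its level at 24 h was 0.338 RPKM with the empty vector, 0.444 RPKM with the wild-type fragment and 8.28 RPKM with the mutant fragment, and 0.209, 0.198 and 0.543 RPKM at the second time. These values stand for 9, 14 and 272 reads and for 7, 6 and 14 reads. The ratio of the mutant-fragment to the empty-vector library at 24 h was 24.5 (95% counting interval 12.7 to 54.1), and to the wild-type-fragment library 18.6 (10.9 to 34.5). At the second time the ratios were 2.60 (0.983 to 7.62) and 2.75 (0.991 to 8.72), and each interval included 1. No interval was made against the 2 controls together. The intervals cover counting error of 2 libraries only. Myc reached 1 RPKM in a single BV2 library, so it failed the filter of the BV2 fits and has no test there, whereas Bysl, the lowest member to pass, was at 1.96 RPKM or more in all 6. Only the mouse gene was read, and v-myc was not analysed here.

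**Figure D3:**
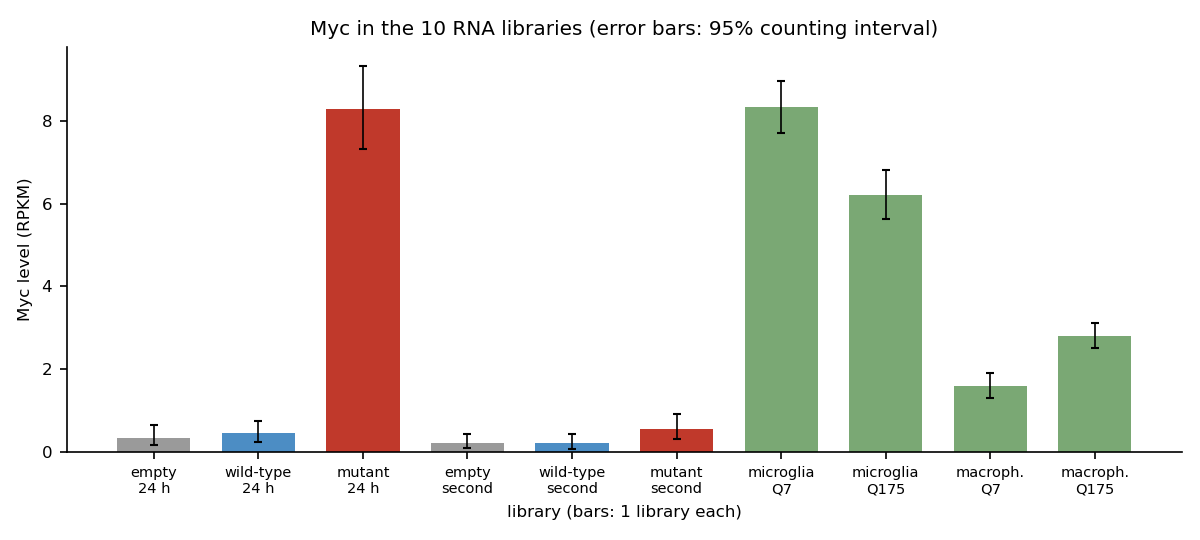
Myc level (RPKM) in each of the 10 RNA libraries, as bars that start at 0, with 95% counting intervals. The mutant-fragment library of 24 h (8.28 RPKM) stands near the 2 microglia libraries, and the other 5 BV2 libraries lie at or below 0.543 RPKM.

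MYC is known to act as a dimer with MAX, and the MXD proteins compete for that partner. Of 7 network partner genes tested, 0 were called higher and 3 lower at 24 h (median -0.20), and none was called at the second time. Mxd4, a repressor partner, was at 3.69, 2.08 and 0.249 RPKM at 24 h and at 2.13, 1.96 and 1.03 RPKM at the second time (difference -1.60 at 24 h, adjusted p = 0.00871 in limma). Mxi1, another repressor partner, was at 8.65, 8.39 and 3.50 RPKM at 24 h and at 7.50, 7.62 and 5.96 RPKM at the second time. Of 19 known MYC targets outside the nucleolus, 13 were called higher and 1 lower at 24 h (median 0.59). In the interaction 7 of these targets were called lower and 1 higher. Over all genes 21.1% were called higher and 18.4% lower at 24 h, and 16.2% lower and 11.9% higher in the interaction. The part of Myc in these counts was not tested. Odc1, which makes polyamines, was at 15.7, 18.1 and 53.9 RPKM at 24 h and at 56.1, 54.2 and 68.7 RPKM at the second time. Mthfd2, a mitochondrial folate enzyme gene, was at 7.25, 8.92 and 27.6 RPKM at 24 h and at 20.8, 20.0 and 27.1 RPKM at the second time.

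A wider list of 72 ribosome assembly factors outside the set was read beside the members. At 24 h 37 of 72 were called higher and 0 lower (median 0.48), at the second time 0 higher and 8 lower (median -0.02), and in the interaction 31 lower and 0 higher (median -0.57; limma). Nol10, a small subunit factor, was at 3.43, 4.49 and 12.0 RPKM at 24 h and at 7.97, 7.65 and 8.34 RPKM at the second time. Pno1, also a small subunit factor, was at 7.47, 7.97 and 20.9 RPKM at 24 h and at 20.1, 18.6 and 22.4 RPKM at the second time. The other RNA polymerase I genes gave a mixed count at 24 h, with 4 of 12 higher and 2 lower (median 0.13). Polr1c, a subunit shared by RNA polymerases I and III, was lower (17.4, 17.4 and 9.96 RPKM at 24 h) and Taf1c, a promoter selectivity factor, higher (1.08, 1.17 and 2.52 RPKM). RNA polymerase III genes had 4 of 19 higher and 1 lower (median 0.08), led by Crcp (0.87) and Polr3gl (-0.84). Over all genes the shares called higher and lower were 21.1% and 18.4% at 24 h. They were 8.98% and 14.6% at the second time and 11.9% and 16.2% in the interaction. These lists and the members were written down with earlier results known, so these counts too are descriptions.

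Cell cycle genes moved in the same libraries. Of 10 proliferation markers, 6 were called higher and 0 lower at 24 h, with a summed level of 84.3, 78.6 and 135 RPKM, and at the second time 0 were called higher and 2 lower, with sums of 327, 321 and 327 RPKM. In the interaction 3 were called lower and 0 higher. The shares of all genes called higher and lower were 21.1% and 18.4% at 24 h. They were 8.98% and 14.6% at the second time and 11.9% and 16.2% in the interaction. At the second time Mki67 was at 26.2, 26.3 and 10.5 RPKM and Top2a at 30.2, 28.7 and 17.1 RPKM, genes named after their values were seen. Most of the list went the other way, with a difference above 0 at the second time for 7 of the 10 markers (median 0.10). The part of these markers in the differences of the ribosome biogenesis genes was not tested. Other marker values also set the mutant-fragment library of 24 h apart from its controls. Lcn2 was at 219 RPKM against 0.106 and 0.180 RPKM, the microglia list summed to 55.4 RPKM against 155 and 167 RPKM, and Flt1, which made up nearly all of the sum of 6 endothelial markers, was at 8.53 RPKM against 44.4 and 44.1 RPKM. Lcn2 and Flt1 were picked out after their values were seen, and their part was not tested.

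A group of 5 members hosts intronic small nucleolar RNA genes in the table: Gnl3, Ncl, Nop56, Nop58 and Wdr43, with 2 each. Only 0.751% of 10252 genes tested contain such an entry. Their median difference from the controls was 1.08 at 24 h, against 0.64 for the other 29 members, and -0.78 at the second time, against 0.11. All 5 hosts had a called interaction. Among 72 other host genes outside the set, 14 were called higher and 4 lower at 24 h (median 0.07, limma), beside 21.1% and 18.4% of all genes. At the second time 7 of these hosts were higher and 14 lower, beside 8.98% and 14.6% of all genes. In the interaction 4 were higher and 19 lower (median -0.11), beside 11.9% and 16.2% of all genes.

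In the control cells alone the set also differed between times. Of 34 members, 32 were called higher at the second time than at 24 h and 0 lower, against 32.1% and 14.8% of all genes (limma, 2 libraries at each time). The median was 0.77, against 0.13 over all genes, and after median-ratio scaling it was 0.59 against -0.01, with 27 members called and 20.5% of genes higher and 23.0% lower. Both controls were higher at the second time for 34 of 35 members, beside 53.0% of all genes. Bop1 had the largest difference (1.21, SE 0.12, adjusted p = 0.00231 in limma). It was at 6.00 and 5.13 RPKM at 24 h and at 15.2 and 13.2 RPKM at the second time. Npm1 and Nob1 were the members not called. This comparison shares its 24 h control libraries with the 24 h comparison of the mutant fragment, so the 2 are not independent. All 10 proliferation markers were called higher at the second time too (median 1.95), and their part was not tested. Without the empty-vector library of the second time fewer members were called higher, and fewer of all genes were too.

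The construct comparison over both times asks whether the mutant fragment changed the set irrespective of time. Against the empty vector 0 of 34 members were called, where 0.087% of all genes were called higher (9 of 10350), and 4 members had an unadjusted p under 0.05 (limma, 2 libraries per construct). Against the wild-type fragment 0 of 34 were called, with a background of 0.0676%, and 5 had an unadjusted p under 0.05. The median differences were 0.35 and 0.42, and 28 and 30 of 34 members lay above 0. These comparisons share the mutant-fragment libraries. The members with the lowest p were Polr1b against the empty vector (0.58, SE 0.17, adjusted p = 0.242) and Rrp9 against the wild-type fragment (0.73, SE 0.18, adjusted p = 0.202). Standard errors ranged from 0.16 to 0.67 and were widest for Nop58, which was high at 24 h and low at the second time.

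The 2 mutant-fragment libraries pulled these counts in opposite directions. Without the mutant-fragment library of 24 h, 4 members were called against the empty vector, all lower, where 10.0% of all genes were called lower. When that of the second time was left out, 23 were called, all higher, where 17.6% of all genes were. Against the wild-type fragment the counts were 5 lower (11.9% of all genes) and 27 higher (17.2% of all genes). The wild-type fragment itself gave 0 calls of 34 against the empty vector (0.0% of all genes called higher), with 0 members at an unadjusted p under 0.05 and a median of -0.03.

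The chromatin data were read at the start site of each member, as peaks listed within 1000 bases on either side. H3K4me2 peaks were listed for 34 of 35 members in each construct, beside 90.0% of all genes tested in empty-vector cells, 89.6% in wild-type-fragment cells and 89.9% in mutant-fragment cells. Rrp1b was the member without one. The mark covered a median of 1461, 1423 and 1319 of 2001 bases at the members, and 1428, 1336 and 1300.5 bases over all genes. There is 1 library for each antibody and construct and the deposited score is the same for every peak, so no test was made, and a peak that is not listed does not show absence of signal.

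PU.1 peaks lay near 21 members in empty-vector cells (39.4% of all genes), 9 in wild-type-fragment cells (26.4%) and 17 in mutant-fragment cells (33.6%). The libraries had 71846, 53835 and 64744 peaks in all, so the members' counts moved with the lists. All 3 lists held a peak at 8 members (21.8% of all genes), Ddx10, Ddx18, Nop16, Nop56, Pes1, Polr1b, Wdr43 and Wdr75. Of the 35, Heatr1, Nhp2 and Utp20 had a peak only in the mutant-fragment list, beside 3.68% of all genes, which was not tested. Their nearest peaks were centred at -995, -65 and -17 bases from the start. For C/EBPα the counts were 4 (9.55% of all genes), 6 (23.4%) and 3 (8.74%) of 35. Nop16 was the member listed in all 3 (5.42% of all genes). For C/EBPβ the counts were 11 (30.8%), 21 (54.7%) and 14 (41.1%). All 3 lists held 10 members (25.2% of all genes), among them Fbl, Ncl, Nop14, Nop56 and Wdr75. The shares by construct lay near or below the background except for PU.1 with the empty vector and the mutant fragment. There 21 and 17 of 35 stood beside 39.4% and 33.6%, and this excess was not tested.

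**Figure D4:**
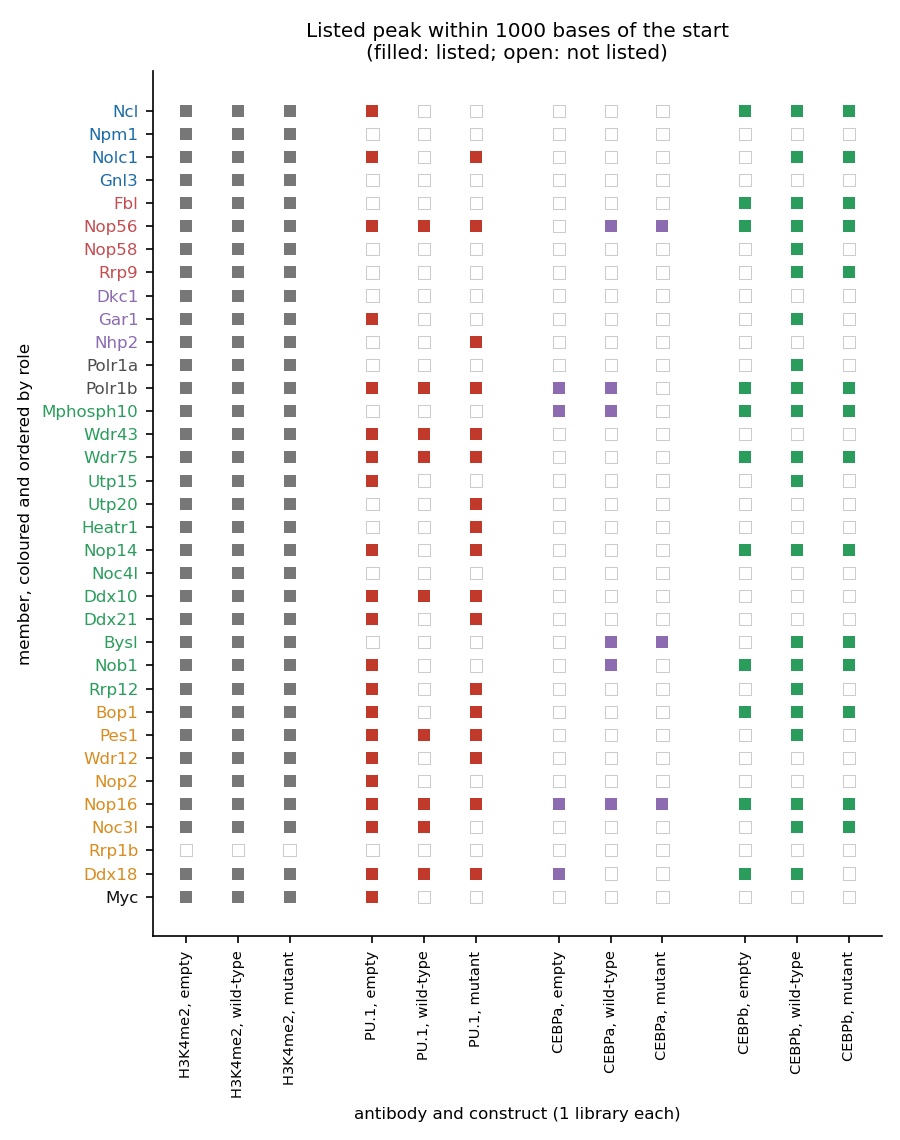
Peaks listed within 1000 bases of the start of each of the 35 members, for 4 antibodies in 3 constructs (1 library each). Filled squares are listed peaks. H3K4me2 was listed everywhere but at Rrp1b, PU.1 at 21, 9 and 17 members and C/EBPβ at 11, 21 and 14 members with the empty vector, the wild-type fragment and the mutant fragment.

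Promoter sequence was available for 30 members (RefSeq, GRCm38.p6, 250 bases before to 50 after the start). The hexamer GAGGAA, an ETS core with the flanks seen in PU.1 sites, was found on either strand in 12 of 30, beside 30.7% of 7491 tested genes and 28.3% of all promoters in the table. The E-box CACGTG, which MYC and other factors bind, was found in 4 of 30 (Nop2, Pes1, Utp20 and Wdr43), beside 12.7% of tested genes and 7.15% of all promoters. TTGCGCAA, a C/EBP palindrome, was found in 0 of 30, beside 0.36% of tested genes. In Utp20, 1 of the members that hold both, the E-box and the hexamer share a base. The hexamer of Pes1 begins at 11, past the start, with nearest PU.1 centres at 11 (empty vector, mutant fragment) and 927 (wild-type fragment). Stretches of 4 other promoters follow, limited to bases before the start and picked because at least 1 listed PU.1 peak lay close. The hexamer is in capitals as read on the gene's strand, 5′ to 3′.
Ddx10 (chr9:53248211-53248296, minus strand): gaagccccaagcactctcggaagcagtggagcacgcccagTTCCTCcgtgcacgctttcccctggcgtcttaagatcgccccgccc
Nop14 (chr5:34660222-34660307, minus strand): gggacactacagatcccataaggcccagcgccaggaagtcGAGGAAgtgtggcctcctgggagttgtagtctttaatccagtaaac
Noc3l (chr19:38819238-38819307, minus strand): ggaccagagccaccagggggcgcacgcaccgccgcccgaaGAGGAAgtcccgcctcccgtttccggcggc
Wdr43 (chr17:71616142-71616214, plus strand): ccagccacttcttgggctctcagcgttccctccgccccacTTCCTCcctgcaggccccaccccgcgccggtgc

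In Ddx10 the hexamer began at position -144 from the start, and the PU.1 peak centres lay at -134, -143 and -148 (empty vector, wild-type fragment, mutant fragment). In Nop14 it began at -119, with peak centres at -89 (empty vector) and -107 (mutant fragment) and none listed with the wild-type fragment. For Noc3l the hexamer was at -30 and the centres at -33 (empty vector) and 42 (wild-type fragment), with none listed for the mutant fragment. In Wdr43 it was at -33, with centres at -39, -175 and -181. Peak positions are counted from the start in the mm9 table and motif positions from the RefSeq start, which can differ, and a match of letters is not a measured site.

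Peaks were also read around Myc. Within 50 kb on either side, PU.1 had 8, 6 and 6 peaks and H3K4me2 4, 6 and 5 (empty vector, wild-type fragment, mutant fragment). A PU.1 peak at chromosome 15, 61843433 to 61843567, inside an H3K4me2 peak at 61843172 to 61843672 (mm9), was listed with the mutant fragment and with neither control. Its centre lies 26604 bases past the start of Myc, beyond the end of the gene. A PU.1 peak inside the gene, centred 802 bases past the start, was listed with the empty vector only. Before the start, C/EBPα peaks centred at -1740, -1739 and -1721 bases and C/EBPβ peaks at -1766, -1733 and -1739 bases were listed with the 3 constructs.

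The last question is how the set differed between the cell line and primary cells. BV2 controls (4 libraries) had more RNA of most members than microglia (2 libraries): 29 of 35 were called higher and 1 lower, against 41.5% and 30.3% of all genes (limma, 11693 genes). The median difference was 1.40, against 0.23 over all genes. Every BV2 control library was above both microglia libraries for 33 of 35 members, beside 46.5% of all genes, with Heatr1 and Myc as the exceptions. Against macrophages (2 libraries) 22 were called higher and 4 lower, where 23.7% and 42.0% of all genes were, with a median of 1.05 against -0.27. Every BV2 control library was above both macrophage libraries for 23 members (26.4% of all genes).

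**Figure D5:**
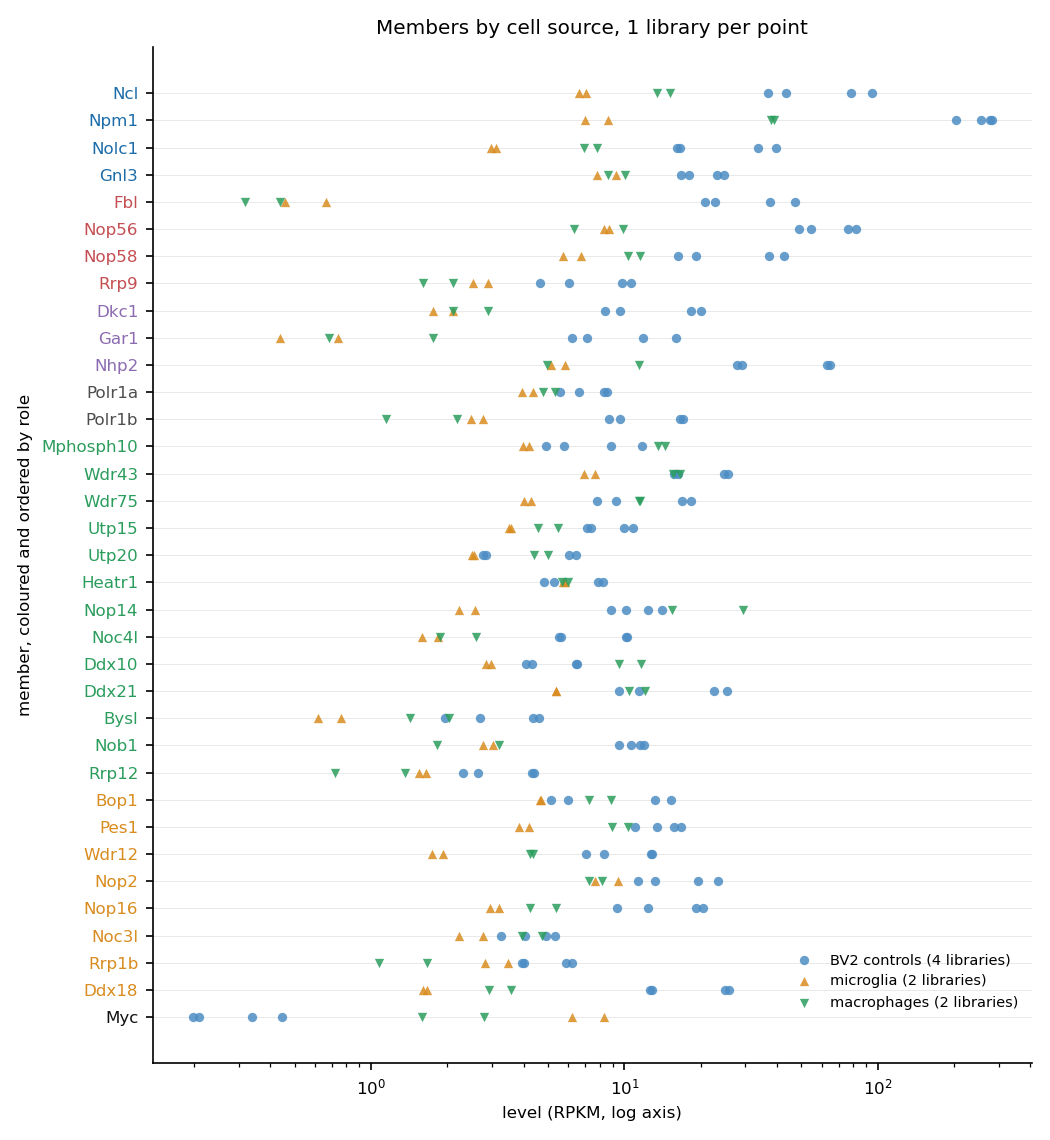
Level of each of the 35 members (RPKM, log axis) in 4 BV2 control libraries, 2 microglia libraries and 2 macrophage libraries, 1 point per library. BV2 controls lie above both microglia libraries for 33 members and above both macrophage libraries for 23, and Myc lies lower in BV2 controls than in either.

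Npm1 and Fbl had the largest differences from microglia, and Fbl the largest from macrophages. Fbl was at 20.8 to 47.3 RPKM in BV2 controls, at 0.457 and 0.666 RPKM in microglia (Q7, Q175) and at 0.317 and 0.438 RPKM in macrophages. The differences were 4.33 (SE 0.32) and 4.51 (SE 0.32). Fbl passed the filter on low values in this fit only through the BV2 libraries, where it is high. Its calls are therefore a description only. Npm1 was at 204 to 283 RPKM in BV2 controls, 8.66 and 7.01 RPKM in microglia and 39.0 and 37.9 RPKM in macrophages (4.85 and 2.68, SE 0.16 each). Ncl (2.93) and Ddx18 (2.86), a helicase of large subunit assembly, followed against microglia, and Nop56 (2.86) and Polr1b (2.36) against macrophages. The primary levels of Fbl are far below those of its partner Nop56, which was at 8.30 and 8.72 RPKM in microglia and 6.35 and 9.89 RPKM in macrophages.

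Myc was the member with the opposite order. It was at 0.198 to 0.444 RPKM in the 4 BV2 controls, at 1.59 and 2.80 RPKM in macrophages (Q7, Q175) and at 8.32 and 6.20 RPKM in microglia, with no overlap between sources. The difference was -2.66 (SE 0.19) against microglia and -1.28 against macrophages. Myc passed the filter on low values in this fit only through the primary libraries, where it is high. Its calls are therefore a description only. Ddx10 (-0.89), Nop14 (-0.87) and Mphosph10 (-0.84) were also lower in BV2 controls than in macrophages, and none of these 3 calls held after median-ratio scaling.

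Scaling matters for these comparisons. Median-ratio scaling moved the median over all genes from -0.27 to 0.13 for BV2 controls against macrophages and from -0.43 to 0.20 for microglia against macrophages. Relative to all genes the members' medians kept their place: 1.33 and 1.40 above the genes' median for BV2 controls against macrophages, and 1.17 and 1.23 above it against microglia. The share of all calls that were higher went from 57.8% to 48.8% against microglia and from 36.1% to 57.4% against macrophages, and the members called were then 24 higher and 1 lower against microglia (35.8% and 37.6% of all genes), and 28 higher and 1 lower against macrophages (37.2% and 27.6% of all genes).

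Between microglia and macrophages the members' median lay near that of all genes. With 2 members called higher (17.0% of all genes) and 9 lower (44.3% of all genes), the members' median of -0.51 was close to the -0.43 of all genes, and it became 0.16 after median-ratio scaling, beside 0.20 over all genes, with 11 members higher and 3 lower (36.9% and 22.2% of all genes). The share of all calls that were higher went from 27.7% to 62.4%. Nop14 was at 2.57 and 2.22 RPKM in microglia and 29.3 and 15.4 RPKM in macrophages, a difference of -2.72 (SE 0.31, adjusted p = 1.41e-04 in limma) that was -1.90 after median-ratio scaling. Npm1 (-2.17), Ddx10 (-1.56) and Mphosph10 (-1.56) were lower too, the last without a call after median-ratio scaling, and Myc (1.39) and Rrp1b (0.81) were the members called higher in microglia. The proliferation markers summed to 42.8 and 39.1 RPKM in microglia, 314 and 462 RPKM in macrophages and 78.6 to 327 RPKM in BV2 controls, all 10 were lower in microglia than in macrophages, and their part was not tested.

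Huntingtin genotype in the primary cells gave no call among the members. Of 33 tested, 0 were called between Q175 and Q7, where 0.112% of all genes were called higher and 0.225% lower (limma, 4 libraries with cell type as a term), and 2 had an unadjusted p under 0.05. Fbl and Gar1 failed the filter on low values in that fit. The median difference was 0.05, against 0.06 over all genes. Within microglia, with 1 library per genotype and no test, 12 members were higher and 23 lower in Q175 (median -0.06, against -0.07 over all genes), and within macrophages 25 were higher and 10 lower (median 0.15, against 0.16). Nop14 was at 29.3 RPKM in Q7 and 15.4 RPKM in Q175 macrophages, and Nhp2 at 4.97 and 11.5 RPKM. Myc was not called for genotype (0.09, adjusted p = 1 in limma). Its level was lower in Q175 than in Q7 microglia (6.20 against 8.32 RPKM) and higher in Q175 than in Q7 macrophages (2.80 against 1.59 RPKM).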

How the data were processed

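Poly(A) RNA levels are RPKM in 1 table that the authors deposited, for 31641 RefSeq transcripts (mm9). STAR 2.0.3e, HOMER and edgeR are named for RNA and Bowtie and HOMER for ChIP-seq, per the submitters' processing notes. Peak lists were called by HOMER in each library, per the file headers, and the deposited score of every peak is 1. RPKM times transcript length gave whole reads within 0.1 reads for 99.87% to 100% of low values, which set the implied depth and the counting intervals.

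From these files, 1 transcript per symbol was kept. A gene entered a fit if 2 or more of its libraries reached 1 RPKM, and was tested on log2(RPKM + 1), which understates changes of low genes, with limma 3.58.1 (R 4.3.3) and Benjamini-Hochberg adjustment over all genes, threshold 0.05. The fits were construct with time (6 libraries, 2 residual degrees of freedom), controls or mutant fragment by time (6 libraries, 2 degrees, with the lone mutant-fragment library of each time assumed to vary like the controls), cell source (8 libraries, 5 degrees) and genotype with cell type (4 libraries, 1 degree, where every gene had the same SE of 0.26). Scripts were tested on generated data with known answers. There, 1.5% of genes given a log2 change of 1 were called for the mutant fragment against controls at 24 h. The share was 76.5% to 97.0% for the comparisons tried in the other fits.

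By rule, values in every library are given for Myc, for the most abundant member of each role and the most different at each time, and for the 10 largest called interactions. The 4 largest differences are named for cell sources and the 2 largest at 24 h for other lists. Members and lists were chosen with earlier results of these data known. Alternatives were other pseudocounts (0.1 and 5), no filter, quantile or median-ratio scaling, the longest transcript, no time term, other peak windows and leaving out each library in turn.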

Additional observations from a re-analysis of the deposited data

Results flagged for a closer look

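An interaction contrast in limma called 18 of the 34 members tested (adjusted p under 0.05 over all genes), as a lower difference between mutant fragment and controls at the second time than at 24 h. The same contrast called 16.2% of all genes lower and 11.9% higher. Each value is the second-time difference minus the 24 h difference on the log2(RPKM + 1) scale. Among box C/D snoRNP genes it was -2.47 for Nop58 and -1.44 for Nop56, and among box H/ACA genes -1.53 for Gar1 and -1.13 for Dkc1. The scaffold genes had -2.28 (Ncl), -1.15 (Gnl3), -1.12 (Npm1) and -0.82 (Nolc1). Small subunit assembly genes had -1.82 (Mphosph10), -1.51 (Wdr75), -1.43 (Wdr43), -1.30 (Ddx10), -1.20 (Utp20), -1.12 (Nop14), -1.02 (Ddx21) and -0.67 (Heatr1), and large subunit genes -0.80 (Noc3l) and -0.57 (Ddx18). There is 1 mutant-fragment library at each time and the members were selected on results of these libraries, so the calls describe these libraries and do not establish a difference between times. Without either control library of the second time no member was called, and almost no gene was called in all.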

How the results depend on the processing

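With 1 library left out in turn, the number of members called ranged from 0 to 23 for the mutant fragment against the empty vector, 0 to 27 against the wild-type fragment and 0 to 0 for the wild-type fragment against the empty vector. It ranged from 22 to 27 at 24 h, 0 to 9 at the second time, 0 to 14 for the interaction and 20 to 32 for the controls between times. For cell sources it ranged from 23 to 33 (BV2 controls against microglia), 19 to 27 (against macrophages) and 7 to 14 (microglia against macrophages, 7 without microglia Q7, microglia Q175 or macrophage Q7). In the BV2 fits the share of all genes called moved along with the members' counts. With no filter on low values, 4 members were called at the second time, 1 higher (3.98% of all genes) and 3 lower (5.70%). In the interaction 11 were called without the filter, all lower (6.69%). A fit of the 4 primary libraries with genotype and cell type called 19 members between microglia and macrophages, 2 higher and 17 lower, beside 18.2% and 49.2% of all genes. Median-ratio scaling turned the members' median for microglia against macrophages to 0.16 and Noc3l there to 0.12 (adjusted p = 0.628 in limma). A window of 5000 bases gave PU.1 peaks near 18 members (53.7% of all genes) and C/EBPα peaks near 11 (35.9% of all genes) with the wild-type fragment. The cause of these changes was not tested. Of 929 calls of single members under other settings, 842 stayed on their side of the threshold, 86 lost it and 1 turned. Of 980 without 1 library, 817 stayed and 163 lost it. Leaving out a library could not be fitted for genotype, nor a mutant-fragment library for the interaction. Time and cell type were terms of the construct and genotype fits, and without the time term 0 members were called in each construct comparison, as with it; no replicate numbers are shared between groups. Depth limits Myc in BV2 cells, at 6 to 14 reads in 5 of the 6 libraries.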
